A study of Mus musculus with 23 samples.

Results

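The 10 genes described here are core members and outputs of the circadian clock, measured in RNA from the small intestine of mice: Arntl (also called Bmal1), Clock, Npas2, Cry1, Per1, Per2, Per3, Nr1d1, Dbp and Tef. They were chosen by name, as a check on the time of sampling, and were found by their NCBI Gene numbers among the 19215 entries of the expression table. All 10 were listed. Levels are in FPKM, fragments relative to the length of the transcript and to the library total, and 8 members averaged 1 FPKM or more and were tested, while Per3 and Dbp did not. The mice were ICR males given busulfan, an alkylating chemotherapy drug, at 40 mg/kg. From the next day on they were given saline (the Sa groups) or gut microbiota of other mice by mouth, that is FMT (fecal microbiota transplantation). The donors had been dosed with water in Con-FMT, and with alginate oligosaccharides (AOS) in A10-FMT, at 10 mg/kg, and in A100-FMT, at 100 mg/kg. All 8 groups had thus received busulfan, and donor material was pooled within each donor group, so the mice of an FMT group shared 1 inoculum. Mice were injected at 3 weeks of age and killed at 5 weeks of age. A code in the sample names splits the libraries into set 1 and set 2, as they are called here, and neither what the code means nor whether that schedule held for both sets is given in the sources used here. There were 23 libraries, with 3 in each group apart from Sa of set 1, which had 2. They are treated here as 1 per mouse. Whether the same mice gave libraries to both sets is not given in the sources used here. The mice were kept with 12 h of light and 12 h of dark, and the time of day at which they were killed is not given in the sources used here.

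The clock is a feedback loop of transcription. ARNTL pairs with CLOCK or NPAS2 and activates genes with an E-box, among them Per1, Per2, Per3, Cry1, Nr1d1, Dbp and Tef; PER and CRY proteins repress the pair, and NR1D1 (REV-ERB alpha) represses Arntl, Clock, Npas2 and Cry1 through ROR elements. DBP and TEF activate genes with a D-box, including the Per genes. In tissues that follow the light cycle, the gut included, transcripts of Dbp, Nr1d1 and the Per genes are known to peak at other times of the day than that of Arntl, so their levels vary with the hour of sampling.

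The letters of these elements were sought in the RefSeq promoter windows of GRCm38.p6, from 250 bases before to 50 after a start site, on both strands. Of the members, 9 had at least 1 entry, with 14 entries in all, and Per2 had none. The E-box (CACGTG, the same on both strands) was in 4 of the 14 entries (1 of Cry1, 1 of Per1 and 2 of Tef), against 7.15% of all 32851 entries of the table. The D-box (TTATGTAA or TTACGTAA) was in 1 of the 14, of Per3, against 1.06% of all entries, and the ROR element (AANT, then A or G, then GGTCA) was in 1 of the 14, of Arntl, against 0.435%. These stretches are shown, with the element in capitals, because they link the members in the loop; the 250 bases before the start are given 5′ to 3′ for 4 members, and 30 bases around the element for Arntl. The E-box began 60 bases before the start in Cry1 (chr10:85185055-85185304, minus strand), 166 before in Per1 (chr11:69098699-69098948, plus strand) and 127 before in Tef (chr15:81802423-81802672, plus strand). In the other Tef entry, not printed, it began 138 bases before the start. The D-boxes of Per3 began 205 and 158 bases before the start (chr4:151044666-151044915, minus strand), and the ROR element of Arntl began 27 bases after it, in the transcribed part (chr7:113207528-113207557, plus strand).
Cry1: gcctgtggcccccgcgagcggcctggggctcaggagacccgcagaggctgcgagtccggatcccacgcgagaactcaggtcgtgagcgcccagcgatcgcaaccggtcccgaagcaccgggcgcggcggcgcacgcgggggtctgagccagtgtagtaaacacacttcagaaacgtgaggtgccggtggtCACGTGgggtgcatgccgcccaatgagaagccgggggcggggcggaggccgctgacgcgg
Per1: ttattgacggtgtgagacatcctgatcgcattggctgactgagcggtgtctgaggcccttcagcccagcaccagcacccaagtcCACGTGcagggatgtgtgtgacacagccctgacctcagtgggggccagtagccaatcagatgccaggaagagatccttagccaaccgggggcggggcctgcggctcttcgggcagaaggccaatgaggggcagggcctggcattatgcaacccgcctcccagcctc
Tef: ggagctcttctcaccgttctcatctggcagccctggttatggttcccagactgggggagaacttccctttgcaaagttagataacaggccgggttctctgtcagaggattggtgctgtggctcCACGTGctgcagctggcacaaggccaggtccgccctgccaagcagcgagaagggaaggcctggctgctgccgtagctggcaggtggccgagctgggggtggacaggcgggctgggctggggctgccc
Per3: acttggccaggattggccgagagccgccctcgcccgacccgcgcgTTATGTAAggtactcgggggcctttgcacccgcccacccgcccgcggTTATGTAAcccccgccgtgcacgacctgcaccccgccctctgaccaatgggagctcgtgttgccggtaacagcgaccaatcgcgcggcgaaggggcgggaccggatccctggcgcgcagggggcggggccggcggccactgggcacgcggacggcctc
Arntl: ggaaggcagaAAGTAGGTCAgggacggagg

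One library stood apart. Sa set 1 replicate 3 had a Pearson r of 0.944 to 0.965 with the others across the 11337 tested genes, while the other 22 correlated with each other at 0.968 to 0.991, and it gave the lowest value of all libraries in 36.2% of the genes and the highest in 27.5%. The title and the description of that mouse also name different columns of the table. Values are those of the title's column, and results that rest on it are also given without it or with the other column. Without it, or without replicate 1, Sa of set 1 has 1 library left, so effect sizes alone are given for changes involving that group. Such a fit cannot decide whether a call holds. Markers of the gut epithelium were present: the summed level of 9 enterocyte genes was 4896 to 13389 FPKM, and Paneth, goblet and crypt markers were found. Other markers had a mean under 1 FPKM: 5 of 6 of smooth muscle, 4 of 4 of neurons and glia, and 4 of 5 of B and plasma cells. The sample titles say intestine and do not say which layers of its wall were taken. Depth per library is not known, since no read numbers were used. In bulk tissue, fewer cells of a type and less RNA per cell cannot be told apart. Nothing in the labels says how the mice of a group relate to each other (litter, cage or day), so p-values measure the spread between these libraries.

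Arntl, the obligate partner of both activators (NCBI Gene 11865, chromosome 7, 113178471 to 113314126 in GRCm38.p6), was the most abundant member per length in 23 of 23 libraries. In set 1 its level was 27.64 and 18.72 FPKM in Sa, 26.06, 26.57 and 28.92 in Con-FMT, 26.90, 25.13 and 24.48 in A10-FMT, and 28.72, 28.11 and 29.14 in A100-FMT. In set 2 it was 28.83, 29.08 and 28.32 FPKM in Sa, 28.04, 28.19 and 28.33 in Con-FMT, 29.33, 28.16 and 28.10 in A10-FMT, and 28.2, 27.1 and 26.1 in A100-FMT. The lowest library was Sa set 1 replicate 3, and without it the highest value was 1.20 times the lowest. Apart from Sa of set 1, the group means of Arntl ran from 25.5 FPKM in A10-FMT of set 1 to 28.7 in Sa of set 2.

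Clock (chromosome 5, 76209868 to 76305603), which pairs with ARNTL, had the same low library. In set 1 it was at 6.28 and 1.96 FPKM in Sa, 7.13, 6.30 and 7.95 in Con-FMT, 6.55, 6.24 and 6.32 in A10-FMT, and 7.34, 7.44 and 8.22 in A100-FMT. In set 2 it was at 7.90, 8.44 and 7.95 FPKM in Sa, 7.30, 7.05 and 7.03 in Con-FMT, 6.61, 7.81 and 8.29 in A10-FMT, and 7.95, 7.02 and 7.32 in A100-FMT. In set 1 both Sa libraries lay below Con-FMT and A100-FMT and overlapped A10-FMT, with 6.28 FPKM in the higher Sa library against 6.30 in the lowest of Con-FMT. In set 2 Sa lay above Con-FMT and overlapped the other FMT groups. Npas2 (chromosome 1, 39193702 to 39363240), which can stand in for CLOCK, ranged from 7.21 FPKM in Sa set 1 replicate 3 to 11.7 in Sa set 2 replicate 3, and was above Clock in 23 of 23 libraries. In set 2 the Npas2 values of A100-FMT were 8.86, 8.32 and 7.62 FPKM, and those of Sa were 9.47, 10.23 and 11.69. How many of all tested genes had groups without overlap was not counted, so the overlaps given for members are description only.

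**Figure D1:**
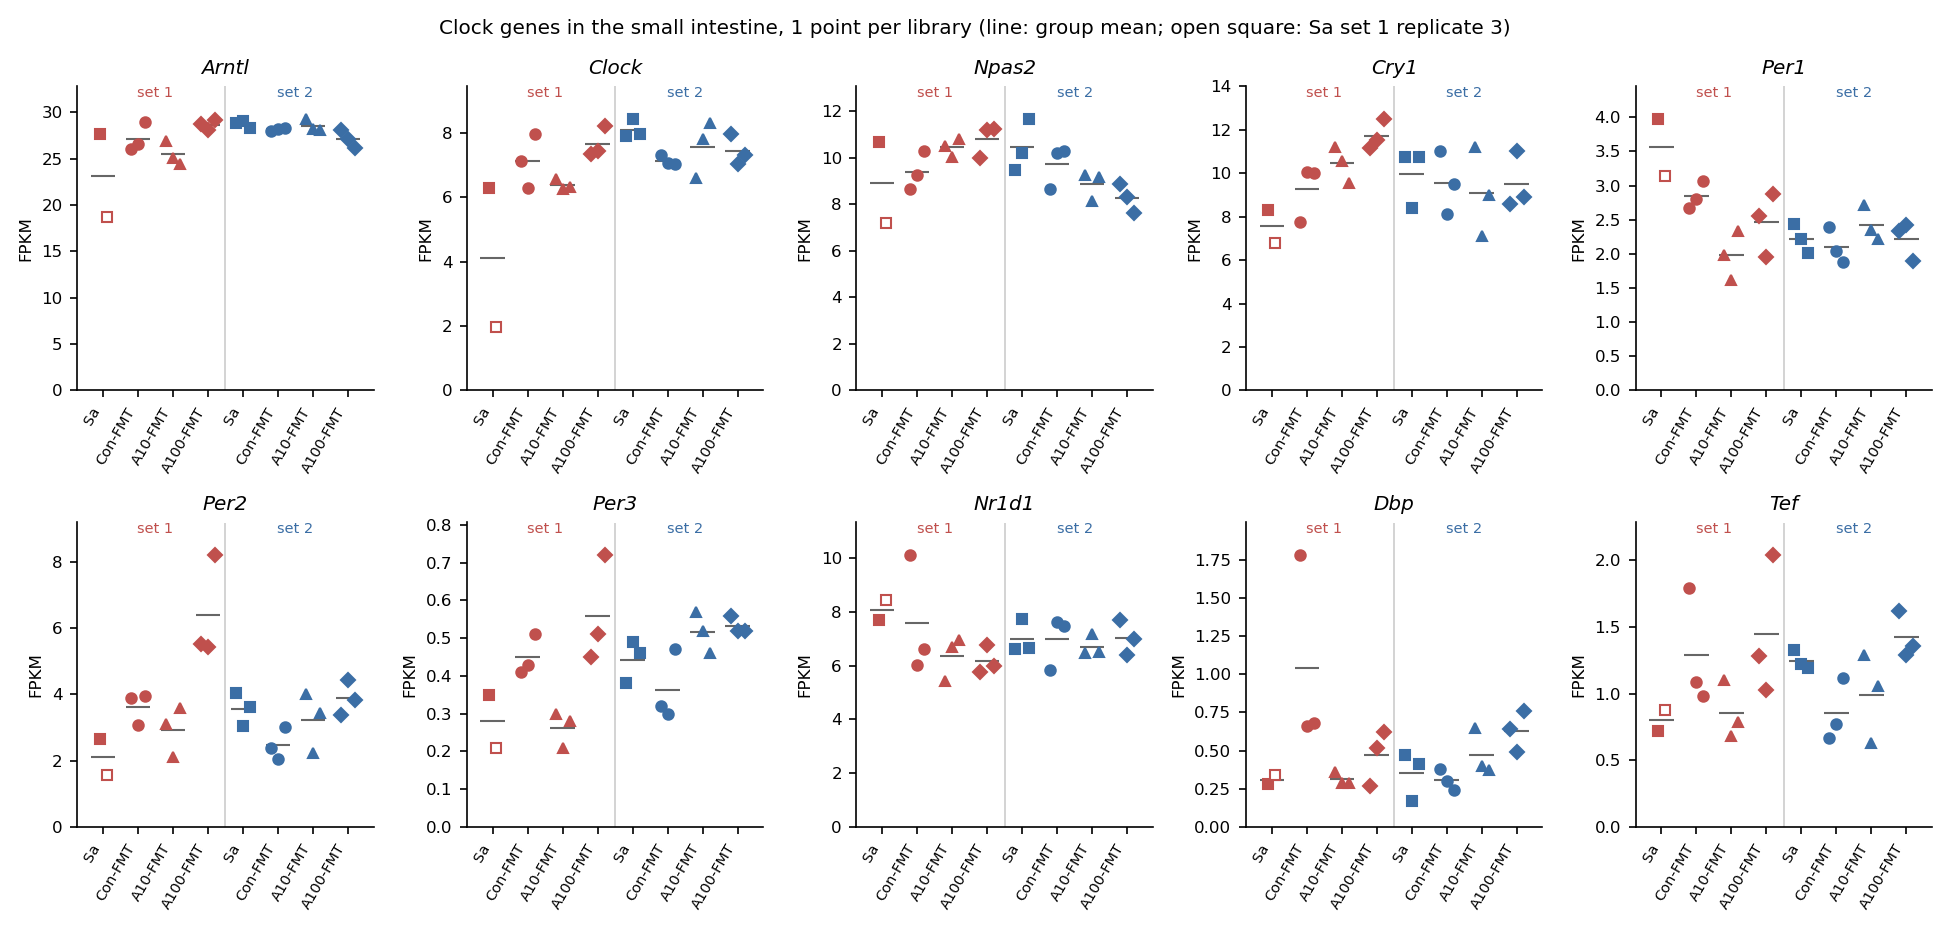
Level of the 10 members in FPKM (y axis, starting at 0) in each group (x axis), with 1 point per library, a line at the group mean, set 1 in red and set 2 in blue. The open square, Sa set 1 replicate 3, is the lowest point for Arntl (18.7 FPKM) and Clock (1.96 FPKM), and Con-FMT set 1 replicate 1 is the highest for Nr1d1 (10.1) and Dbp (1.78).

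Among the repressors, Cry1 (chromosome 10, 85131700 to 85185054), whose protein blocks the activator pair, was at 8.33 and 6.81 FPKM in Sa, 7.76, 10.07 and 10.02 in Con-FMT, 11.22, 10.57 and 9.57 in A10-FMT, and 11.17, 11.52 and 12.52 in A100-FMT of set 1. The set 2 values were 10.73, 8.42 and 10.73 FPKM in Sa, 11.03, 8.13 and 9.51 in Con-FMT, 11.19, 7.13 and 8.98 in A10-FMT, and 8.58, 11.02 and 8.90 in A100-FMT. The 3 libraries of A100-FMT and of A10-FMT in set 1 were all above both Sa libraries of set 1, while the groups of set 2 overlapped.

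Per1 (chromosome 11, 69095108 to 69109965), a repressor that responds fast to light and hormones, was highest in Sa of set 1. Its level in set 1 was 3.98 and 3.14 FPKM in Sa, 2.67, 2.81 and 3.07 in Con-FMT, 1.99, 1.61 and 2.33 in A10-FMT, and 2.56, 1.95 and 2.88 in A100-FMT. In set 2 it was 2.44, 2.21 and 2.01 FPKM in Sa, 2.39, 2.04 and 1.88 in Con-FMT, 2.71, 2.35 and 2.21 in A10-FMT, and 2.33, 2.42 and 1.89 in A100-FMT. The mean was 3.56 ± 0.594 FPKM (SD, n = 2) in Sa and 1.98 ± 0.360 (SD, n = 3) in A10-FMT of set 1, and ordered by their means, only Sa of set 1 was separate from its neighbour, all other neighbouring groups overlapping.

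Per2 (chromosome 1, 91415977 to 91459351), the second of the PER repressors, was highest in A100-FMT of set 1. It was at 2.66 and 1.58 FPKM in Sa, 3.88, 3.06 and 3.94 in Con-FMT, 3.09, 2.11 and 3.58 in A10-FMT, and 5.53, 5.42 and 8.20 in A100-FMT of set 1. Levels in set 2 were 4.04, 3.04 and 3.63 FPKM in Sa, 2.38, 2.04 and 3.02 in Con-FMT, 4.01, 2.23 and 3.43 in A10-FMT, and 3.38, 4.43 and 3.84 in A100-FMT. All 3 libraries of A100-FMT set 1 were above every other library, the next being 4.43 FPKM, and the other 7 groups overlapped with their neighbours. Per3 (chromosome 4, 150997018 to 151044707) was low, from 0.21 FPKM in Sa set 1 replicate 3 and A10-FMT set 1 replicate 2 to 0.72 in A100-FMT set 1 replicate 3.

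Nr1d1 (chromosome 11, 98767932 to 98775377), the heme-binding nuclear receptor that closes the second loop, was at 7.69 and 8.45 FPKM in Sa, 10.11, 6.03 and 6.60 in Con-FMT, 5.41, 6.70 and 6.96 in A10-FMT, and 5.78, 6.78 and 6 in A100-FMT of set 1. Those of set 2 were 6.60, 7.74 and 6.64 FPKM in Sa, 5.85, 7.63 and 7.48 in Con-FMT, 6.46, 7.16 and 6.49 in A10-FMT, and 7.70, 6.40 and 6.98 in A100-FMT. Within each set its groups overlapped, apart from both Sa libraries of set 1 lying above A10-FMT and A100-FMT of that set.

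Of the PAR bZIP outputs, Dbp (chromosome 7, 45705100 to 45710203) was at 0.28 and 0.34 FPKM in Sa, 1.78, 0.66 and 0.68 in Con-FMT, 0.36, 0.29 and 0.29 in A10-FMT, and 0.27, 0.52 and 0.62 in A100-FMT of set 1. In set 2 it was at 0.47, 0.17 and 0.41 FPKM in Sa, 0.38, 0.30 and 0.24 in Con-FMT, 0.65, 0.40 and 0.37 in A10-FMT, and 0.64, 0.49 and 0.76 in A100-FMT. The value of 1.78 FPKM, in Con-FMT set 1 replicate 1, stood alone, the next highest being 0.76. The same library was the highest of all for Nr1d1 as well, and it was the highest in 4.58% of the tested genes. Tef (chromosome 15, 81802673 to 81826863) ranged from 0.63 FPKM in A10-FMT set 2 replicate 2 to 2.04 in A100-FMT set 1 replicate 3, the library that also had the highest Cry1, Per2 and Per3 and was the highest in 6.39% of the tested genes.

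The level of Arntl was 14.6 times that of Dbp in Con-FMT set 1 replicate 1 and 171 times in Sa set 2 replicate 2, with a median of 69.1 times over the 23 libraries. The ratio of Arntl to Nr1d1 in FPKM ran from 2.22 in Sa set 1 replicate 3 to 4.97 in A10-FMT set 1 replicate 1. For a summary over members, the mean of log2(FPKM + 1) was taken over Arntl, Clock, Npas2 and Cry1, which NR1D1 represses, and over the other 6 members. The difference between these means was 1.59 to 2.41, with a median of 2.19, and its lowest values were in Sa set 1 replicate 3 (1.59) and in Con-FMT set 1 replicate 1 (1.70). Arntl was above Dbp and above Nr1d1 in 23 of 23 libraries. This order between different genes does not by itself give the hour of sampling.

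**Figure D2:**
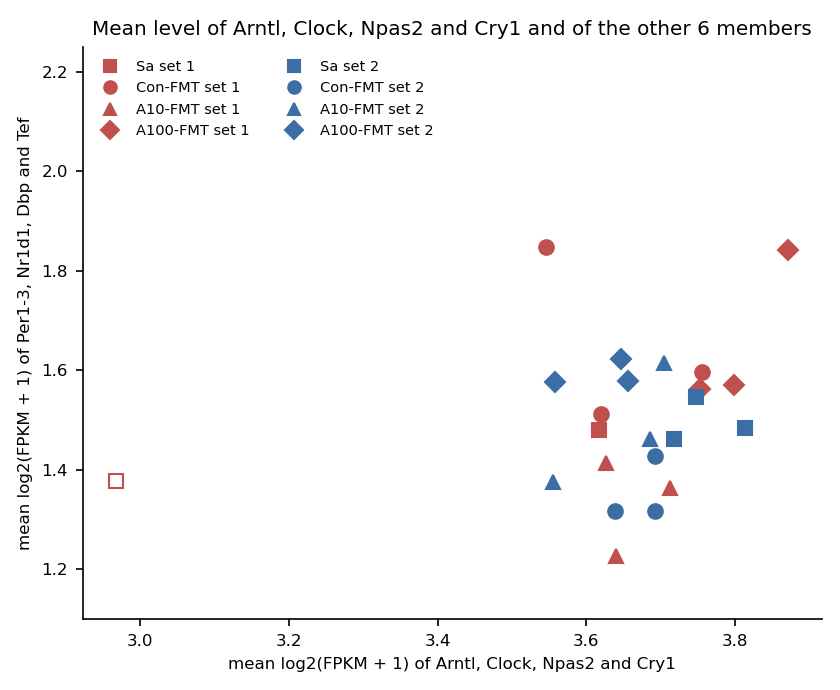
Mean log2(FPKM + 1) of Arntl, Clock, Npas2 and Cry1 (x axis) against that of Per1, Per2, Per3, Nr1d1, Dbp and Tef (y axis), 1 point per library, squares for Sa, circles for Con-FMT, triangles for A10-FMT and diamonds for A100-FMT, set 1 in red and set 2 in blue. Neither axis starts at 0; Sa set 1 replicate 3 (open square) lies at 2.97 on the x axis and all others at 3.55 or above.

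The question was then whether members differed between the groups. A difference anywhere among the 8 groups passed the threshold (limma, adjusted p under 0.05) for 3 of the 8 tested members, beside 33.8% of all tested genes: Per2 (F = 7.11, adjusted p = 0.00659), Per1 (F = 4.70, adjusted p = 0.0225) and Clock (F = 3.70, adjusted p = 0.042). Per2 passed under all 30 alternatives tried, Per1 under all but 1 of 30 (array weights, limma adjusted p = 0.0842), and Clock missed the threshold under 23 of 31, among them without Sa set 1 replicate 3 (limma adjusted p = 0.0525). For Arntl (adjusted p = 0.101), Npas2 (0.0961), Cry1 (0.136), Tef (0.113) and Nr1d1 (0.497) the limma test did not pass.

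In set 1, Con-FMT vs. Sa called 2 of the 8 members higher, beside 17.7% of all tested genes. Clock differed by a log2 change of 0.80 ± 0.22 (SE, limma adjusted p = 0.0265) and Per2 by 0.58 ± 0.21 (adjusted p = 0.0492). Without Sa set 1 replicate 3 the log2 change fell to 0.15 for Clock and 0.33 for Per2. With the description's column neither was called, beside 0.37% of all tested genes called higher. The change was then 0.11 for Clock (limma adjusted p = 0.642) and 0.25 for Per2 (adjusted p = 0.652).

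In A10-FMT vs. Sa of set 1, Per1 fell by 0.62 on the log2 scale (SE 0.13, limma adjusted p = 0.00275) and Clock was called higher by 0.67 (SE 0.22, adjusted p = 0.0272), so that 1 member was called lower, beside 18.4% of all tested genes, and 1 higher, beside 13.6%. The log2 change of Per1 was -0.75 without Sa set 1 replicate 3 and -0.48 without Sa set 1 replicate 1. Per1 was still called lower with the description's column (-0.57, limma adjusted p = 0.00397), beside 23.2% of all tested genes. Over the 31 alternatives its log2 change was -0.82 to -0.48, and its limma adjusted p 0.00103 to 0.619, past the threshold in all but 2, array weights and the groups compared alone. Clock did not hold with the description's column, with a log2 change of -0.03 (limma adjusted p = 0.831). Without Sa set 1 replicate 3 its change was 0.02.

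A100-FMT vs. Sa of set 1 gave the most calls, 4 members higher beside 22% of all tested genes and 1 lower beside 13.1%. Per2 was higher by 1.24 ± 0.21 (SE, limma adjusted p = 0.00308), Clock by 0.90 ± 0.22 (adjusted p = 0.00986), Cry1 by 0.58 ± 0.16 (adjusted p = 0.0164) and Arntl by 0.32 ± 0.10 (adjusted p = 0.022), and Per1 fell by 0.40 on the log2 scale (SE 0.13, adjusted p = 0.027). Without Sa set 1 replicate 3 the log2 change was 0.99 for Per2, 0.25 for Clock, 0.45 for Cry1 and 0.05 for Arntl. That of Per1 was then -0.53. With the description's column Per2 alone passed, with a log2 change of 0.91 (limma adjusted p = 0.011), and over its 31 alternatives it ran from 0.91 to 1.56, with adjusted p 8.41e-05 to 0.563.

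In set 2 none of the 8 members was called in any FMT group vs. Sa by limma, beside 0.0353%, 0.423% and 0.0353% of all tested genes for Con-FMT, A10-FMT and A100-FMT. At an unadjusted p under 0.05 the number of members was 0, 0 and 1, the last being Npas2 in A100-FMT vs. Sa, with a log2 change of -0.30 ± 0.11 (SE, limma adjusted p = 0.217). The number of all genes at that level was 651, 1627 and 1606 of 11337. The log2 change of Per2 in set 2 was -0.40 ± 0.19 in Con-FMT, -0.13 ± 0.19 with A10-FMT and 0.10 ± 0.19 with A100-FMT.

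**Figure D3:**
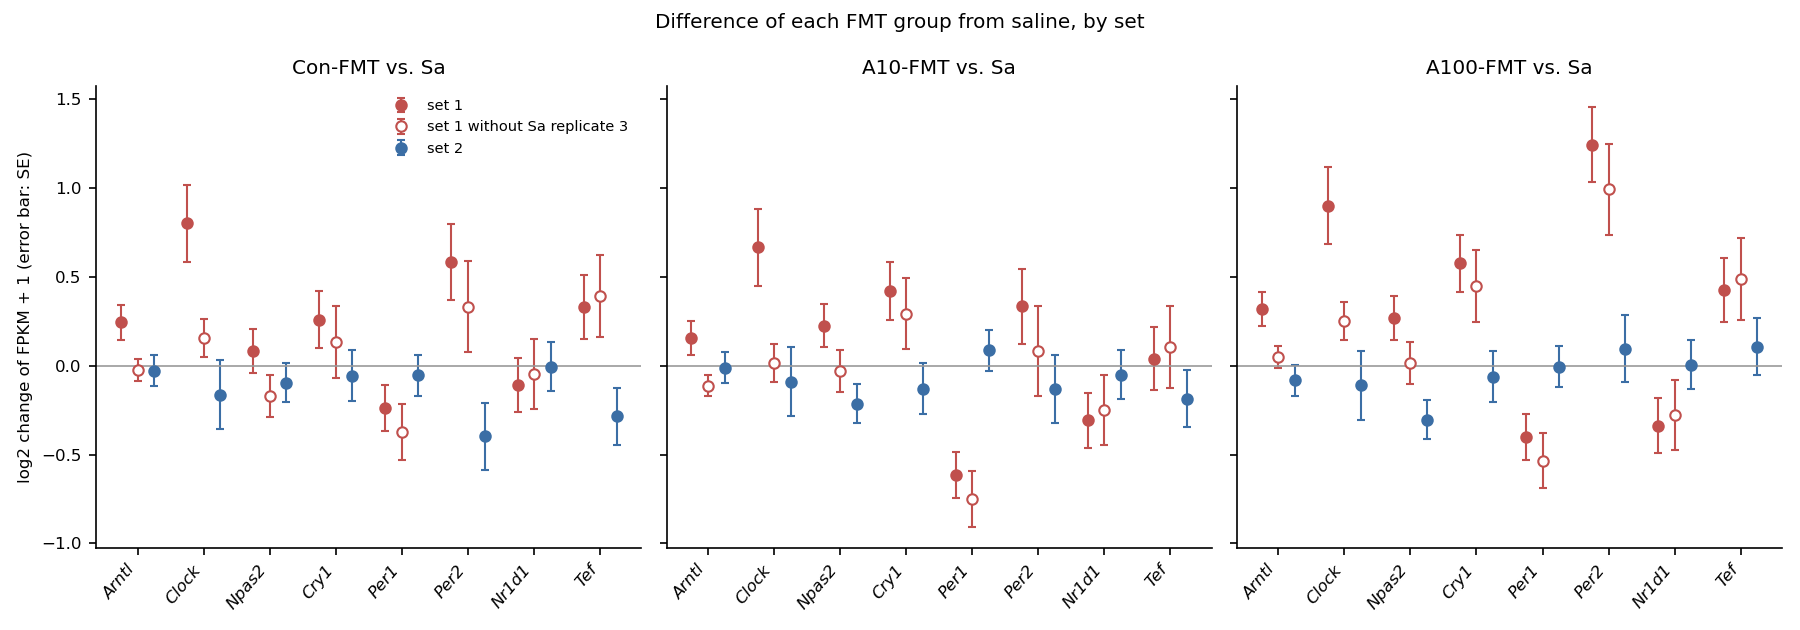
Log2 change of FPKM + 1 (y axis, error bars SE from limma) of the 8 tested members (x axis) in each FMT group vs. Sa, for set 1 (red, filled), set 1 without Sa replicate 3 (red, open) and set 2 (blue). For Clock in A100-FMT the change moves from 0.90 to 0.25 when that library is left out, while that of Per2 moves from 1.24 to 0.99.

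The change relative to Sa differed between the sets, tested as an interaction (set 2 minus set 1), for Per1 in A10-FMT, by 0.70 ± 0.17 on the log2 scale (SE, limma adjusted p = 0.00655), 1 member beside 17.8% of all tested genes in that direction. This difference was 0.84 without Sa set 1 replicate 3 and 0.57 without Sa set 1 replicate 1. Of 31 alternatives it missed the threshold in 1, array weights (0.69, limma adjusted p = 0.34). For A100-FMT, 5 members had a lower change in set 2, beside 13.5% of all tested genes: Per2 by -1.15, Clock by -1.01, Cry1 by -0.64, Npas2 by -0.57 and Arntl by -0.40. Without Sa set 1 replicate 3 the differences were -0.90 for Per2, -0.51 for Cry1, -0.36 for Clock, -0.32 for Npas2 and -0.13 for Arntl. Npas2 (-0.49, adjusted p = 0.024) and Per2 (-0.82, adjusted p = 0.04) passed with the description's column. For Con-FMT none passed, beside 0.00882% of all tested genes, with Clock, Per2 and Tef at an unadjusted p under 0.05 (3 members, and 3893 of all 11337 genes).

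Comparing FMT from AOS-dosed donors with FMT from vehicle donors, Per1 was called lower in A10-FMT vs. Con-FMT of set 1, with a log2 change of -0.38 ± 0.12 (SE, limma adjusted p = 0.0326), 1 member beside 11.5% of all tested genes. That call was lost in 9 of 31 alternatives (limma adjusted p 0.0157 to 0.144), among them both other scalings and the leaving out of any Con-FMT library of set 1 or of A10-FMT set 1 replicate 1 or 2. The log2 change stayed between -0.52 and -0.29. In A100-FMT vs. Con-FMT no member was called in set 1 or set 2, beside 0.406% and 0% of all tested genes, and in A10-FMT vs. Con-FMT of set 2 none was, beside 0.379%. Per2 in A100-FMT vs. Con-FMT had a log2 change of 0.66 ± 0.19 in set 1 (limma adjusted p = 0.172) and 0.49 ± 0.19 in set 2 (adjusted p = 0.337). Members at an unadjusted p under 0.05 were Cry1 and Per2 in set 1 and Per2 and Tef in set 2 (2 in each, beside 1282 and 1270 of all 11337 genes), and none in A10-FMT vs. Con-FMT of set 2 (1348 genes).

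Between the sets, Sa of set 2 had 3 members called higher than Sa of set 1, beside 24.2% of all tested genes, and 1 lower, beside 13.9%. The log2 change was 0.97 ± 0.22 for Clock (SE, limma adjusted p = 0.00951), 0.57 ± 0.21 for Per2 (adjusted p = 0.0435), 0.32 ± 0.10 for Arntl (adjusted p = 0.0191) and -0.50 ± 0.13 for Per1 (adjusted p = 0.0117). Without Sa set 1 replicate 3 the change was larger for Per1, at -0.63, and smaller for Clock (0.32), Per2 (0.31) and Arntl (0.05). With the description's column none of the 4 passed (limma adjusted p 0.0588 to 0.49). Without Sa set 1 replicate 1 the change of Per1 was -0.36. With the replicate number as a block, 1 of the 4, Per1, remained past the threshold. For Con-FMT, A10-FMT and A100-FMT no member was called between the sets, beside 0.00882%, 30.4% and 0% of all tested genes. Over the mean of the 4 treatments none was called, beside 13.3%. Members at an unadjusted p under 0.05 were Per1 and Per2 in Con-FMT, none in A10-FMT, Npas2 and Per2 in A100-FMT, and Arntl, Clock and Per1 in the mean, beside 674, 4778, 1641 and 3901 of all genes. In A10-FMT the median log2 change of all genes was itself 0.12, and that of the 8 members was 0.10.

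Dbp and Per3 entered only the fit of all genes with a value above 0. There, Dbp in Con-FMT vs. Sa of set 1 had a log2 change of 0.60 ± 0.17 (SE, limma adjusted p = 0.0477), beside 4.66% of the 19187 genes of that fit called higher. In A10-FMT vs. Con-FMT of set 1 its change was -0.59 ± 0.15 (SE, adjusted p = 0.024), beside 5.68% called lower, and the 2 comparisons share the Con-FMT libraries of set 1. Without the library at 1.78 FPKM neither passed, with 0.35 (limma adjusted p = 0.107) and -0.35 (adjusted p = 0.0887). The first also missed the threshold with the description's column (0.45, limma adjusted p = 0.416). Its change was 0.63 without Sa set 1 replicate 3. Per3 differed among the 8 groups (F = 6.68, limma adjusted p = 0.0148), beside 14.4% of the genes of that fit, and still did without Sa set 1 replicate 3 (adjusted p = 0.0165). Per3 was higher in A100-FMT vs. Sa of set 1 (0.28 ± 0.07, limma adjusted p = 0.0168), beside 11.2%. Per3 lost this call with the description's column (0.16, limma adjusted p = 0.169), and its change was 0.20 without Sa set 1 replicate 3. In A10-FMT it was higher in set 2 than in set 1 (0.26 ± 0.06, limma adjusted p = 0.00693), beside 11.2%. With 1 FPKM added, such changes understate those of genes this low.

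Across the 23 libraries, 10 of the 45 pairs of members were correlated (permutation test of Pearson r with 100000 resamples, two-sided, adjusted p under 0.05), 9 positively and 1 negatively. The negative pair was Cry1 and its repressor Nr1d1, with a Pearson r of -0.78 and a Spearman rho of -0.83, each with p = 1e-05, the smallest that the permutation test can give, and an adjusted p of 0.00045. Leaving out the 2 libraries farthest from the median of Cry1 gave r = -0.81. Within set 1 r was -0.83 (n = 11, permutation adjusted p = 0.0217) and within set 2 -0.73 (n = 12, permutation p = 0.00894, adjusted p = 0.201). Over deviations from the group means r was -0.74 (permutation adjusted p = 0.00765), and without Sa set 1 replicate 3 it was -0.75 (permutation adjusted p = 0.00135). It was the 1 pair of 45 that passed over deviations from the group means.

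**Figure D4:**
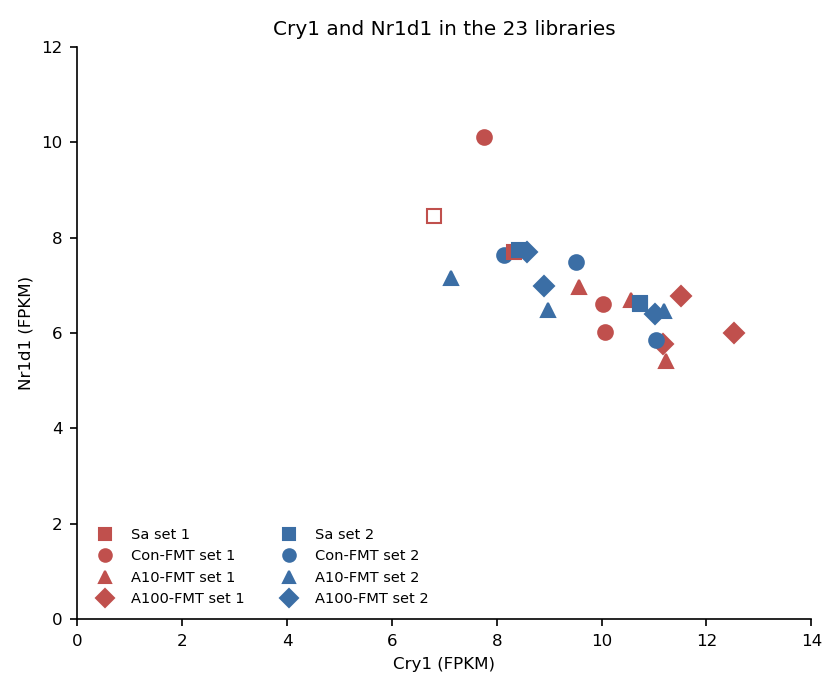
Level of Nr1d1 (y axis) against that of Cry1 (x axis), both in FPKM from 0, with 1 point per library and the symbols of the groups as given in the key (open square, Sa set 1 replicate 3). Libraries with the highest Cry1, 11 FPKM and above, have Nr1d1 of 5.41 to 6.78 FPKM, and Con-FMT set 1 replicate 1, with Cry1 at 7.76, has Nr1d1 at 10.1.

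Arntl and Clock had a Pearson r of 0.92 (permutation adjusted p = 0.00112) and a Spearman rho of 0.64 (permutation adjusted p = 0.0187), but r was 0.59 without the 2 libraries farthest from the median of Arntl and 0.16 within set 2. Without Sa set 1 replicate 3 r was 0.64 (permutation adjusted p = 0.0117), and within set 2 the relation did not pass the test (permutation adjusted p = 0.877). Per2 and Tef had r = 0.72 and rho = 0.68 (permutation adjusted p = 0.00135 and 0.0115), with r = 0.63 without the 2 farthest libraries, 0.72 in set 1, 0.83 in set 2 and 0.56 over deviations from the group means (permutation adjusted p = 0.27). Per2 and Per3 had r = 0.72 and rho = 0.55 (permutation adjusted p = 0.00169 and 0.0486), with r = 0.90 in set 1 and 0.54 in set 2. The textbook opposites Arntl and Dbp had r = 0.02 over the 23 libraries. It was -0.16 without Sa set 1 replicate 3, 0.16 within set 1 and -0.44 within set 2, and passed in none. Positive pairs that passed also joined Per3 with Arntl (r = 0.63, permutation adjusted p = 0.00378) and with Clock (0.58, 0.00572), and Per2 with Cry1 (0.65, 0.0051). Without that library r was 0.58, 0.60 and 0.57 (each permutation adjusted p = 0.0232). Within set 2 it was -0.09, 0.03 and 0.60. Within set 2 none of the 45 pairs passed the adjustment, and within set 1 4 did. No pair other than Cry1 and Nr1d1 passed over deviations from the group means.

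**Figure D5:**
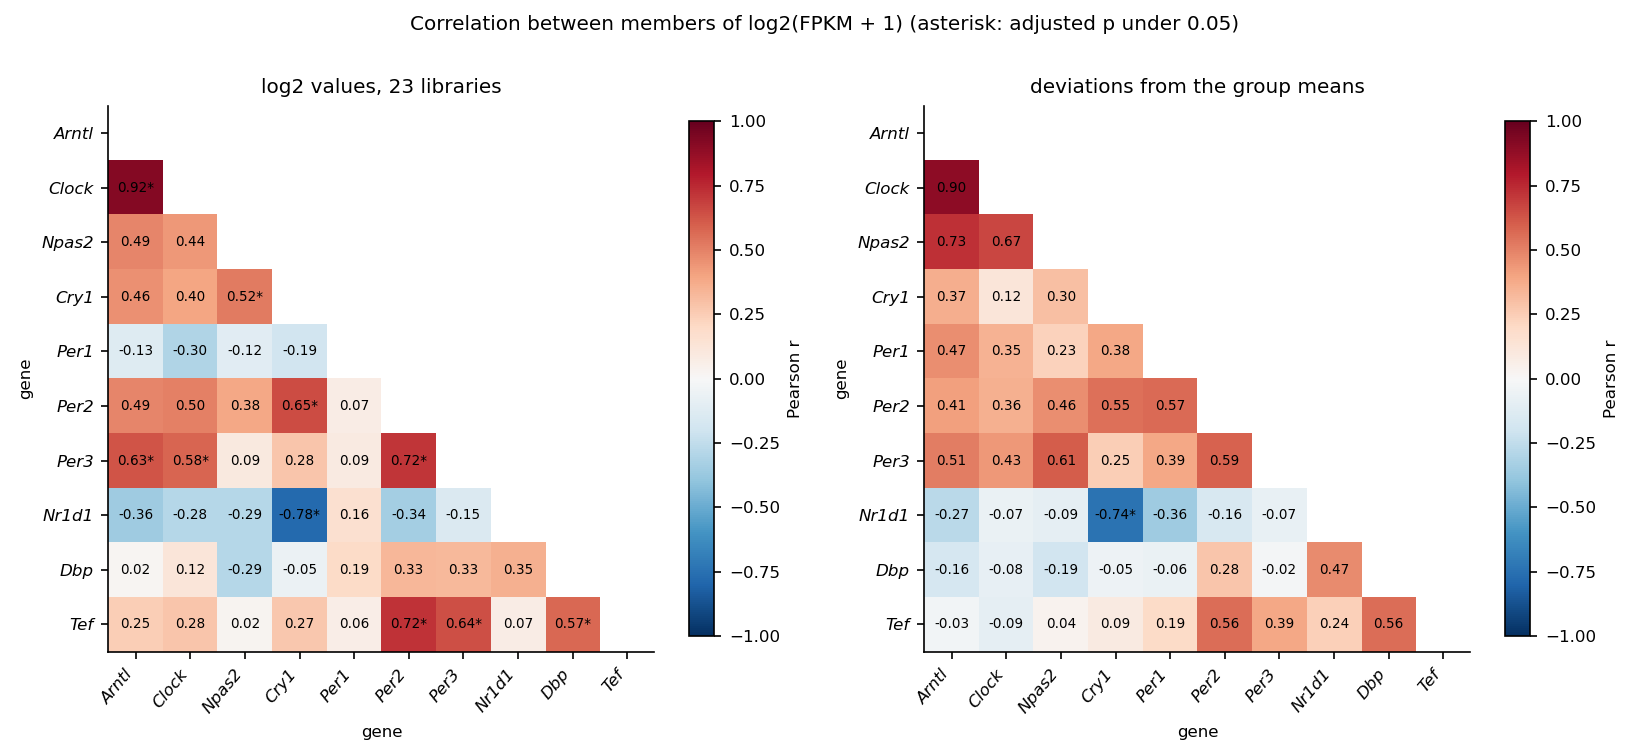
Pearson r of log2(FPKM + 1) between each pair of members (rows and columns, colour from -1 to 1, value printed), over the 23 libraries on the left and over deviations from the group means on the right, with an asterisk at a permutation adjusted p under 0.05. Left, 10 pairs carry an asterisk; right, Cry1 and Nr1d1 (-0.74) alone does.

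Of 16 other clock genes, 9 reached a mean of 1 FPKM. Per length the kinase Csnk1d, which marks PER for turnover, was at 44.1 to 55.7 FPKM over the libraries. The D-box repressor Nfil3 was at 20.1 to 28.7 and the E-box repressor Bhlhe40 at 15.9 to 27.2. The ubiquitin ligase subunits Fbxw11 and Btrc were at 14.6 to 19.0 and 2.27 to 3.34 FPKM, the kinase Csnk1e at 4.18 to 6.80 and Timeless at 2.93 to 5.75. Cry2 and Nr1d2, the sister genes of Cry1 and Nr1d1, were at 1.15 to 2.83 and 0.68 to 2.77 FPKM, and the highest Nr1d2 was in a library of Con-FMT set 1. Arntl2, Rora, Rorb, Bhlhe41, Hlf, Ciart and Fbxl21 had a mean under 1 FPKM. Among the 8 groups 3 of the 9 differed (Timeless, Bhlhe40 and Csnk1e), beside 33.8% of all tested genes.

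In A10-FMT vs. Sa of set 1, 3 of these 9 were called lower, beside 18.4% of all tested genes: Timeless by -0.43, Bhlhe40 by -0.39 and Csnk1d by -0.19 on the log2 scale (limma adjusted p = 0.00262, 0.0118 and 0.0269). When Sa set 1 replicate 3 was left out, the change was -0.48 for Bhlhe40, -0.33 for Timeless and -0.10 for Csnk1d. With the description's column Bhlhe40 and Timeless passed and Csnk1d did not (-0.11, limma adjusted p = 0.0942). In A100-FMT vs. Sa of set 1 Cry2 was called higher, by 0.53 (limma adjusted p = 0.0125), 1 of the 9 beside 22% of all tested genes. Its change was 0.58 with the description's column (limma adjusted p = 0.0147) and 0.63 without Sa set 1 replicate 3. In Con-FMT vs. Sa of set 1, Fbxw11 was called higher, by 0.20 (limma adjusted p = 0.0377), 1 of the 9 beside 17.7%. Its change was 0.08 without that library and 0.06 with the description's column, which did not call it (limma adjusted p = 0.683). In set 2 none of the 9 was called in any FMT group vs. Sa by limma. 

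The members' median log2 change in the 3 comparisons of set 1 was 0.25, 0.19 and 0.37 for Con-FMT, A10-FMT and A100-FMT, beside 0.05, -0.01 and 0.05 for all tested genes. The same medians were 0.05, -0.01 and 0.15 without Sa set 1 replicate 3, beside 0.01, -0.07 and 0.01. In set 2 they were -0.08, -0.11 and -0.03, beside -0.01, 0.03 and 0.03.

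Other genes whose level is known to follow the clock, feeding or stress were counted in the same comparisons. In set 1, the share of all tested genes called higher and lower was 17.7% and 9.17% in Con-FMT vs. Sa, 13.6% and 18.4% in A10-FMT vs. Sa, and 22% and 13.1% in A100-FMT vs. Sa. Of 7 tested clock output genes, 1 was called higher in Con-FMT, 2 higher and 1 lower in A10-FMT, and 3 higher in A100-FMT. Of 4 glucocorticoid-responsive genes, 1 was higher in Con-FMT and 1 was lower in each of A10-FMT and A100-FMT. Of 3 fasting-responsive genes, none was called in Con-FMT or A10-FMT and 1 was lower in A100-FMT. Of 7 immediate early genes, 1 was higher and 1 lower in Con-FMT, and 2 were higher and 1 lower in A10-FMT and in A100-FMT. Without Sa set 1 replicate 3, Sa of set 1 has 1 library left, so effect sizes alone are given for these lists. The median log2 changes in Con-FMT, A10-FMT and A100-FMT were then 0.06, 0.21 and 0.09 for clock output genes. They were -0.19, -0.26 and -0.23 for glucocorticoid-responsive, -0.05, -0.15 and 0.01 for fasting-responsive, and 0.02, 0.20 and 0.09 for immediate early genes. Those of all tested genes were 0.01, -0.07 and 0.01. In set 2 no gene of these 4 lists was called. In A10-FMT of set 1, where Per1 was lowest, the summed enterocyte markers were at 10879 to 13389 FPKM, against 5940 to 7594 in Sa of set 1. The enterocyte sum was 4896 to 6581 FPKM in A10-FMT and 7539 to 8692 in Sa of set 2. The mean level of Per1 in those groups was 2.42 and 2.22 FPKM. In A100-FMT of set 1, where Per2 was highest, the summed Paneth cell markers were at 1741 to 2779 FPKM, against 4844 to 6194 in Sa of set 1. The Paneth sum was also low in Sa (1498 to 2682 FPKM) and in A100-FMT (1966 to 3225) of set 2. The mean level of Per2 there was 3.57 and 3.88 FPKM. The part of these differences in the results for Per1 and Per2 was not tested.

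The tested genes most like Arntl over the 23 libraries, by Pearson r of log2(FPKM + 1), were Adam10 (0.96), Dsc2, Sp3, Kmt5b and Tab2 (each 0.95), and the most opposite were Adrm1, Aldoa and Map2k3 (each -0.93) and Pfn1 and Rbm42 (each -0.91). Without Sa set 1 replicate 3 these became 0.79 to 0.82 and -0.80 to -0.62. Most like Dbp were Arrdc4 (0.78), 4930579G24Rik (0.73), B4galnt4 (0.73), Pml (0.72) and Urb1 (0.71), and most opposite were Abcd4 (-0.73), Ube2a (-0.66), Lrrc75a (-0.65), Cgrrf1 (-0.64) and Dyrk1b (-0.63). The libraries share their treatments and sets, and these are the ends of a ranking of all tested genes, given as a description.

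Within groups, the spread of log2(FPKM + 1) was larger than in 88.9% of the tested genes for Per2, 81.7% for Tef, 78.4% for Cry1 and 75.7% for Nr1d1, and without Sa set 1 replicate 3 than in 90.9%, 88.7%, 86.9% and 86.2%. For Clock it was larger than in 89.6% with that library and 49.7% without it, the SD being 0.25 and 0.09. The SD of Arntl was 0.11 with it and 0.05 without it, larger than in 37.7% and 3.94% of the tested genes. Compared with genes of a like mean (within 0.5 on the log2 scale), the SD of Per2 was 0.25 beside a median of 0.15, and 0.24 beside 0.11 without that library.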

How the data were processed

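RNA-seq of 23 libraries of mouse small intestine was analysed. Per the authors, RNA came from TRIzol extraction and HiSeq sequencing, and RPKM and DEGseq are described; the deposited values are FPKM with 2 decimals, and the submitters' processing notes name mm10. The aligner, strand setting and depth are not given in the sources used here, so no count model was fitted and values carry no counting error. All 24 columns had a sample; for the Sa mouse of set 1 numbered 3, title and description name different columns, and only 1 of them entered any fit.

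The fit was on log2(FPKM + 1), with limma 3.58.1 in R 4.3.3 (1 mean per group over the 8 groups, eBayes with trend, contrasts, F), with Benjamini-Hochberg adjustment over the 11337 genes averaging 1 FPKM or more and a threshold of 0.05. Correlations were computed with numpy 2.4.6, with ranks from scipy 1.17.1 and 100000 permutations, adjusted over 45 pairs. The method was tested on simulated data. Coordinates and promoters came from RefSeq, GRCm38.p6.

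Genes named are the 10 members, the other clock genes that reached a mean of 1 FPKM, and the 5 genes most and least correlated with Arntl and with Dbp. Of the genes in the lists counted, 3 are not reported here and are left out of the counts. The members and lists were chosen with earlier results of these data known. Alternatives were a pseudocount of 0.1, other filters, quantile and median-ratio scaling, a replicate block, array weights, groups compared alone, the description's column and leaving out each library.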

Additional observations from a re-analysis of the deposited data

Results flagged for a closer look

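For 6 results the change of an FMT group relative to Sa differed between the sets in the interaction test of limma. Per1 in A10-FMT differed by 0.70 on the log2 scale (set 2 minus set 1). In A100-FMT the difference was -1.15 for Per2, -1.01 for Clock, -0.64 for Cry1, -0.57 for Npas2 and -0.40 for Arntl. These 5 share the Sa libraries of set 1, in 1 of which Arntl, Clock, Npas2, Cry1 and Per2 were each at their lowest of all 23 libraries (Sa set 1 replicate 3). Without it the differences were -0.90 for Per2, -0.51 for Cry1, -0.36 for Clock, -0.32 for Npas2 and -0.13 for Arntl. With the description's column Per2 and Npas2 passed. Per1 was not at its lowest there, at 3.14 FPKM, the second highest of all libraries. Dixon's test for an outlying library was not run, since no group had 4 or more libraries.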

How the results depend on the processing

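The counts below are members called by limma. The share of all tested genes called can move with the setting too, and it is not given beside each count. A changed count is therefore not by itself a trait of the clock genes. A mean of at least 5 FPKM took Per1 (mean 2.43 FPKM), Per2 (3.59) and Tef (1.13) out of the test. The calls of Per1 and Per2 were thus lost by the filter itself. Among the members left the count was 1 for any difference among the groups. It was 1 for Con-FMT vs. Sa and 3 for A100-FMT vs. Sa of set 1, 0 for A10-FMT vs. Con-FMT of set 1 and 2 for Sa between the sets. With array weights the count was 0 for each FMT group vs. Sa of set 1, for Sa between the sets and for the A10-FMT and A100-FMT interactions, 1 for A10-FMT vs. Sa and for A100-FMT vs. Sa of set 2 and for A100-FMT between the sets, and 3 for A10-FMT between the sets. With the description's column it was 0 for Con-FMT vs. Sa, 1 for A10-FMT vs. Sa and 1 for A100-FMT vs. Sa of set 1, 0, 2 and 1 for Sa, A10-FMT and A100-FMT between the sets, and 2 for the A100-FMT interaction. That column reversed 1 value, Clock in A10-FMT vs. Sa of set 1 (log2 change -0.0267). Calls among all tested genes moved as well. In Con-FMT vs. Sa of set 1, 0.37% were higher and 0.0264% lower with that column, against 17.7% and 9.17% in the main fit. In A10-FMT vs. Sa these shares were 10.6% and 23.2%, against 13.6% and 18.4%. In A100-FMT vs. Sa they were 5.75% and 2.77%, against 22% and 13.1%. Groups compared alone gave 0 for each FMT group vs. Sa and for A10-FMT vs. Con-FMT of set 1, for Sa between the sets and for the A100-FMT interaction, and 2 for A10-FMT between the sets. Scaling by quantiles or by median ratios gave 0 for A10-FMT vs. Con-FMT of set 1, 1 for A10-FMT between the sets, 1 for the mean of 4 treatments between the sets, and 3 and 4 for the A10-FMT interaction, and median ratios 1 for Con-FMT vs. Sa of set 1. All genes above 0 gave 1 for A10-FMT between the sets, namely Per3, which was not in the main fit, and 3 for the A100-FMT interaction.

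The replicate numbers were not treated as pairs in the main fit. Deviations of same-numbered libraries correlated at -0.159 to 0.181 in set 1 and -0.352 to 0.319 in set 2. Those of differently numbered libraries correlated at -0.234 to 0.234 and -0.352 to 0.371. Deviations within a group sum to 0, so this check cannot tell whether the numbers pair the libraries. With the replicate block, Sa between the sets gave 1, and no other count moved by over 1.5 times. Leaving out 1 library at a time gave 2 to 5 for any difference, 0 to 4, 1 to 5 and 0 to 6 for Con-FMT, A10-FMT and A100-FMT vs. Sa of set 1, 0 to 1 for A100-FMT vs. Sa of set 2, 0 to 1 for A10-FMT vs. Con-FMT of set 1, 0 to 5 for Sa, 0 to 3 for A10-FMT, 0 to 1 for A100-FMT and 0 to 2 for the mean between the sets, and 0 to 4, 1 to 5 and 0 to 5 for the interactions of Con-FMT, A10-FMT and A100-FMT. Leaving out a Sa library of set 1 left 1 library in that group, and these ranges include such fits. The 10 correlated pairs became 9 to 11 without 1 library, 4 within set 1, 0 within set 2 and 1 over deviations from the group means. For Dbp and Per3, the fits that left out Sa set 1 replicate 3 or Con-FMT set 1 replicate 1 or used the other column, and the medians and spreads without Sa set 1 replicate 3, were added after seeing the data. Causes were not tested. Groups compared alone could not change the mean of the treatments and were not run for it. FPKM without read numbers gives no limit for members near 0, such as Dbp and Per3.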
